A study of Mus musculus with 18 samples.

Results

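The difference between uterus and oviduct in the response to diethylstilbestrol (DES), a synthetic estrogen, was measured in newborn mice as the DES effect in the uterus minus the DES effect in the oviduct. It uses 12 of the 18 arrays of the series, chosen by their organ and treatment labels, with 3 in each of 4 groups: DES uterus, oil uterus, DES oviduct and oil oviduct. All 22626 probe sets of the Affymetrix MOE430A array, control probe sets apart, entered the test, and they cover 12393 genes. Per the labels, pregnant ICR mice of the DES groups received 67 µg of DES per kg of their weight by injection each day, over fetal days 10 to 18. The oil groups are labelled as oil controls of the same organs, and all RNA was taken on the day of birth from 3 litters. No genotype differs between the groups, and the labels do not say whether litters were pooled or which litter an array stands for. The p-values below therefore measure the spread between these arrays.

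The oviduct and the uterus both form from the Müllerian duct, a simple tube whose front part becomes the oviduct and whose middle part becomes the uterus. The oviduct epithelium later holds ciliated cells, which move the egg, and secretory cells, while the uterus builds a thick wall of stroma and smooth muscle around a simple epithelium with glands. Estrogens act through the estrogen receptor in epithelium and stroma of both organs, and in the adult oviduct they favour ciliated cells.

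The organ labels were checked on the oil arrays. Hoxa11 and Hoxa10, homeobox genes of the uterine part of the duct, were higher in oil uterus than in oil oviduct by 2.34 and 1.81 on the log2 scale. Aldh1a1, a retinoic acid enzyme, and Plet1, a placenta-expressed transcript used here as an oviduct gene, were lower in oil uterus, with log2 differences of -3.50 and -3.31. Lists of organ genes were also set for this check. The oviduct secretory list summed to 13132 to 14187 on oil uterus arrays and to 19994 to 21799 on oil oviduct arrays. The sums of the ciliated cell and smooth muscle lists, given below, overlapped between the oil organs. These comparisons do not cover the DES arrays. Values are signals scaled to a trimmed mean of 500 per array, and changes are on the log2(signal + 32) scale, which understates changes of dim genes. Arrays 1 and 2 of each group share a first scan day and array 3 of each has a second, and the deposited array names give the third arrays an age of 19 days post coitum in place of 0 days. Transcripts of skeletal muscle summed to 16476 on oil uterus array 3 and to 7376 and 15180 on oil oviduct arrays 1 and 3, against 2245 to 4147 on the other 9 arrays. The record of DES oviduct array 3 names another organ than its array name, and oil oviduct array 1 has no usable detection calls.

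DES changed both organs about as often, and the 2 responses differed past an adjusted p of 0.05 for 152 probe sets, 0.672% of those tested. These were 63 with a more positive DES effect in the uterus (0.278%) and 89 with a more positive one in the oviduct (0.393%). Counted by genes, 126 were called (1.02%), 52 on the uterus side (0.42%) and 74 on the oviduct side (0.597%). For comparison, DES against oil called 781 genes in the uterus (6.3%, or 5.05% of probe sets), of which 473 rose (3.82%) and 308 fell (2.49%). In the oviduct it called 723 (5.83%, or 4.65% of probe sets), of which 443 rose (3.57%) and 280 fell (2.26%). Of the genes that rose, 184 rose in both organs, 38.9% of those of the uterus and 41.5% of those of the oviduct. Of the genes that fell, 118 fell in both, 38.3% and 42.1%.

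The count of 152 depended on how the arrays were combined. With the scan day as a block it was 476 probe sets (2.1%), with the array number as a block 425, and on the first scan day alone, with 2 arrays per group, 210. Leaving out any array numbered 1 or 2 gave 57 to 78, and leaving out any array numbered 3 gave 108 to 128. Without the 3 oil arrays that hold skeletal muscle transcripts it was 26, and without the 2 oviduct arrays that have conflicting records 52. Of the 51 called genes named below, all 51 had the same sign on the second scan day, where each group has 1 array and no test is possible. Those arrays also entered the fit that called these genes, so the shared sign is not independent of it.

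The 2 sides of the difference had different shapes. On the oviduct side, 60 of the 74 genes rose in the oviduct with no call in the uterus, 8 fell in the uterus with no call in the oviduct, 3 rose in both organs but more in the oviduct, 1 fell in both and 2 moved in opposite directions. On the uterus side, 33 of the 52 genes rose in the uterus with no call in the oviduct, 10 rose in both but more in the uterus, 4 fell in the oviduct alone, 2 fell in both, 2 moved in opposite directions and 1 was called in neither organ. A call in one organ and not in the other is not itself a difference, which is why the test of the difference was used to choose these genes.

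**Figure D1:**
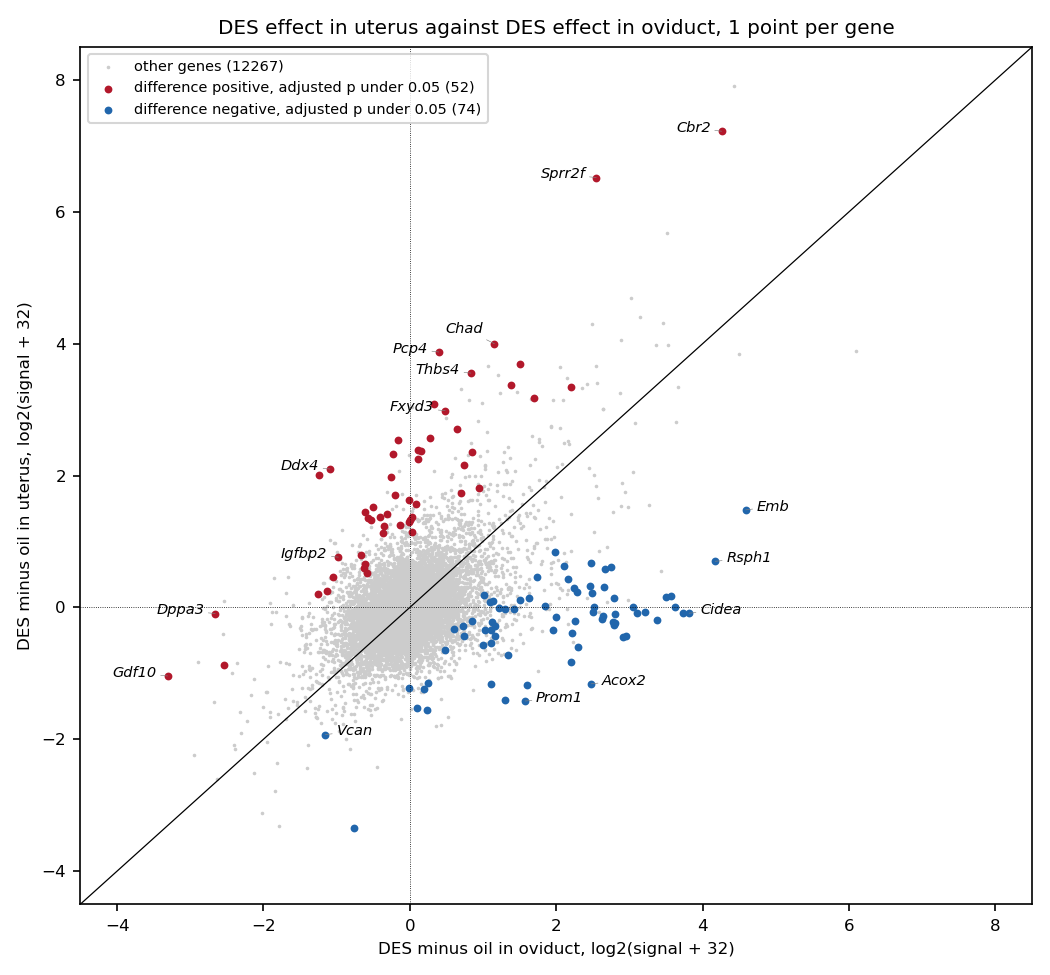
DES effect in the uterus (vertical axis) against DES effect in the oviduct (horizontal axis), both as DES minus oil in log2(signal + 32), with 1 point for each of the 12393 genes and a line of equal effects. Red points are the 52 genes called with a more positive effect in the uterus, blue points the 74 with a more positive effect in the oviduct, most of which lie close to 0 on the uterus axis.

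With DES, most of these genes differed more between the organs than they did with oil. On the oviduct side the median uterus-minus-oviduct difference was -2.15 on DES arrays and 0.08 on oil arrays, and the gap between organs was wider with DES for 69 of 74 genes, with the opposite sign for 45. Of these 74, 25 were called Absent (not above background) in both oil groups. On the uterus side the median was 1.32 on DES arrays and -0.49 on oil arrays, with a wider gap for 38 of 52 genes and the opposite sign for 42. On both sides, the sign of the difference between the organs thus changed with DES for most of the genes. On the oviduct side the oil median was only 0.08 and 25 genes were Absent in both oil groups, so a changed sign there need not be a turned order. These counts describe genes chosen by the difference itself, and the same counts were not made over all genes. Absent calls are common on these arrays, since 9186 of all 12393 genes were Present on at least 2 of them. The counts therefore do not show how far the called genes stand apart from the others.

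**Figure D2:**
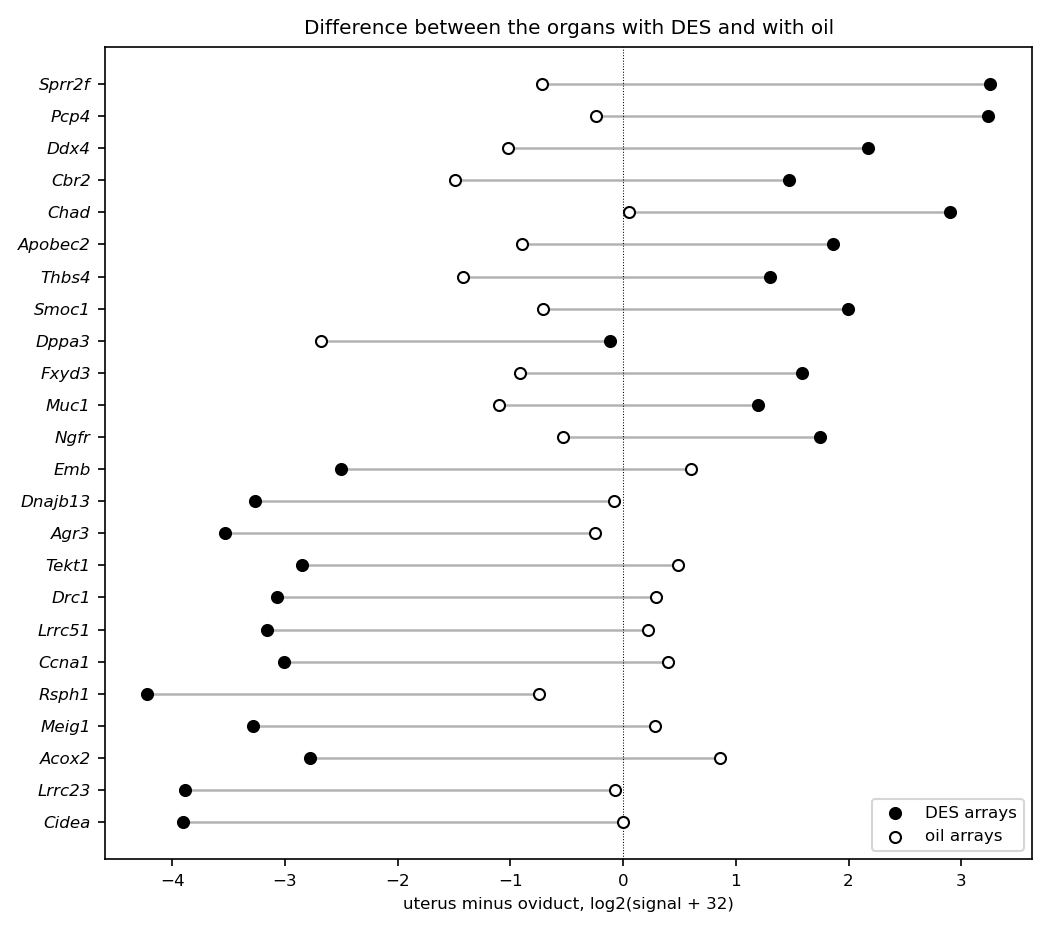
Uterus minus oviduct in log2(signal + 32) on DES arrays (filled) and on oil arrays (open) for the 12 genes with the most positive and the 12 with the most negative difference among those named by rule. The open points lie between -2.68 (Dppa3) and 0.86 (Acox2), and the filled points reach 3.25 (Sprr2f) and -4.22 (Rsph1).

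Most genes of ciliated cells rose with DES in the oviduct. Of 16 measured genes on the ciliated cell list, 10 had a difference past the threshold on the oviduct side and none on the uterus side, against 0.597% and 0.42% of all genes. In the oviduct 13 of the 16 rose (3.57% of all genes), with a median change of 2.51. In the uterus none was called, with a median of 0.12, and the median difference was -2.71 against 0.02 over all genes. The summed signal of the list was 4925 to 5243 in DES uterus, 4478 to 4866 in oil uterus, 20051 to 22078 in DES oviduct and 4480 to 4945 in oil oviduct. The 3 DES oviduct arrays thus stood above all others, by about the same amount on each. In DES uterus, oil uterus and oil oviduct much of the sum came from 1 gene, Tubb4b, with mean signals of 3104, 2857 and 2638. In these groups 7, 8 and 10 of the 16 genes were called Absent on every array with calls. In bulk tissue, more cells of a type and more RNA per cell cannot be told apart.

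Rsph1, a part of the radial spoke head of motile cilia, showed the pattern. It had signals of 111, 64.1 and 71.5 in DES uterus, against 22.4, 82.5 and 21.1 in oil uterus. In the oviduct it had 1790, 1727 and 2824 with DES, against 95.2, 91.1 and 67.6 with oil. The uterus groups overlapped and were called Absent, while the DES oviduct mean stood at least 18.0-fold above the oil oviduct mean. Such bounds compare group means on the log2(signal + 32) scale, not single arrays, and equal the fitted fold where the Absent signals lie above the dimmest Present signal. The difference was -3.47 ± 0.47 (SE, adjusted p = 0.00409, limma).

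Lrrc23, another radial spoke protein, had 211, 156 and 60.3 in DES uterus, against 270, 138 and 65.4 in oil uterus. Its oviduct signals were 2241, 2428 and 2382 with DES, against 150, 252 and 80.5 with oil, and the mean was at least 13.2-fold higher with DES. The uterus arrays of both treatments covered the same range, and the third array was the lowest in each of these groups but DES oviduct. The difference was -3.81 ± 0.62 (adjusted p = 0.0131). Its call was lost without DES oviduct array 2 (adjusted p = 0.0504).

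Tekt1, a tektin of the ciliary microtubules, had 28.5, 66.9 and 53.7 in DES uterus and 32.03, 77.8 and 20.3 in oil uterus. Its signals were 475, 540 and 631 in DES oviduct, against 5.81, 10.9 and 49.95 in oil oviduct, with a difference of -3.34 ± 0.53 (adjusted p = 0.0116). Meig1, needed for sperm formation and present in ciliated cells, had 339, 402 and 315 in DES oviduct and 23.5 or less on all 9 other arrays, a difference of -3.57 ± 0.37 (adjusted p = 0.000644). Drc1, of the complex that regulates the dynein motors, differed by -3.36 ± 0.64 (adjusted p = 0.0342), with 500, 487 and 507 in DES oviduct, against 79.2, 11.7 and 39.8 in oil oviduct. Drc1 lost its call when any array was left out but oil oviduct array 1 and oil uterus array 2, with an adjusted p of up to 0.101 without DES uterus array 2.

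The other 5 called genes of the list were Spa17 (-3.06), Tppp3 (-2.90), Mlf1 (-2.66), Tubb4b (-1.40) and Ift57 (-1.18), given as differences in log2 units. Tubb4b, a tubulin that other cells also express, was bright in every group, with mean signals of 3104 in DES uterus, 2857 in oil uterus, 7559 in DES oviduct and 2638 in oil oviduct. Foxj1, the transcription factor that drives the formation of motile cilia, had 98.5, 56.8 and 13.6 in DES uterus, 148, 136 and 20.3 in oil uterus, 411, 562 and 681 in DES oviduct and 71.9, 158 and 59.2 in oil oviduct. It rose in the oviduct by 2.23 (adjusted p = 0.0205), and its difference of -2.76 ± 0.72 did not pass (adjusted p = 0.131), but did with the scan day as a block (0.0201). Of the cofactors, Rfx2 rose in the oviduct by 1.64 (adjusted p = 0.0216) while called Absent in all groups, and Rfx3 was changed in neither organ (0.24 in uterus and 0.23 in oviduct).

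The list's count of 10 was 6 to 9 with single arrays left out. It was lowest, at 6, without DES oviduct array 2. It was 4 without the 2 oviduct arrays with conflicting records and 2 without the 3 oil arrays rich in muscle transcripts, where the median stayed at -2.74 and -2.63. Among these genes, Meig1 kept its call without the oil arrays rich in muscle transcripts (adjusted p = 0.044), Rsph1 (0.0708), Tekt1 (0.0529) and Lrrc23 (0.0778) did not, with differences of -3.58, -3.82 and -3.56.

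**Figure D3:**
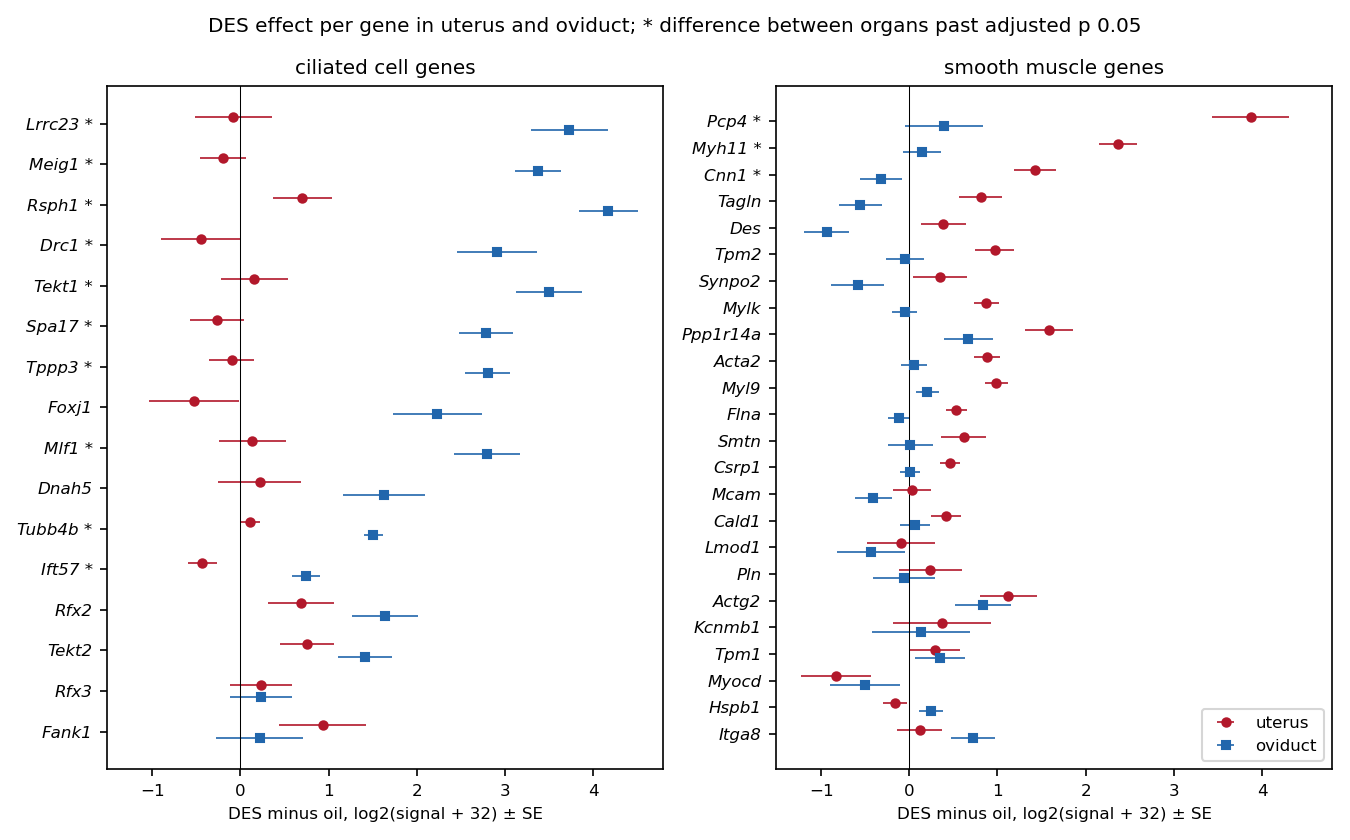
DES effect (DES minus oil in log2(signal + 32), points with standard errors) in uterus (red circles) and oviduct (blue squares) for the 16 measured ciliated cell genes (left) and the 24 measured smooth muscle genes (right). In the left panel 13 blue squares are called rises, with red circles around 0. In the right panel 10 red circles are called rises, and no blue square is called.

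The promoters of 2 of these genes, the ciliated cell genes with the largest differences that have a single RefSeq entry, are shown because motile cilia genes are known targets of RFX factors. The RFX half-site searched was GTTGCC, on both strands. The promoters run from 250 bases before to 50 bases after the RefSeq start site in GRCm38.p6 and lie at chr6:124779678-124779977 on the minus strand for Lrrc23 and at chr5:30281143-30281442 on the plus strand for Drc1. Capitals mark RFX half-sites on either strand, and half-sites of the estrogen response element, searched as GGTCA on both strands.
Lrrc23: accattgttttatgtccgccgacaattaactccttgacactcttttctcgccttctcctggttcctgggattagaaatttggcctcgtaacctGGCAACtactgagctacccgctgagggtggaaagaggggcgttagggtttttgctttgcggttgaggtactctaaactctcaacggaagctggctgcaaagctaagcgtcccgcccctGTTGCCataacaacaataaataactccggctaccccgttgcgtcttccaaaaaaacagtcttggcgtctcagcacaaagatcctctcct
Drc1: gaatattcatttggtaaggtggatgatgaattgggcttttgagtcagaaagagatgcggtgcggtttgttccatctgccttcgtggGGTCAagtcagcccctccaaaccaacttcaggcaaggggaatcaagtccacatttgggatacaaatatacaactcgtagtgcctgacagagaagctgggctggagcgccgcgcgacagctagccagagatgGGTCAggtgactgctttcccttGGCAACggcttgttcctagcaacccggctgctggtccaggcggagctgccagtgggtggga
Lrrc23 holds 2 RFX half-sites, which begin 157 and 39 bases before the start, and Drc1 holds 1, beginning 11 bases before it. Of the 13 ciliated cell genes with a RefSeq promoter, 9 hold at least 1 RFX half-site, against 14.1% of all 27025 genes with one. Drc1 also has 2 estrogen half-sites, which 8 of the 13 and 43.6% of all genes hold. Neither promoter holds a forkhead match (TAAACA on either strand), which 2 of the 13 and 15.1% of all genes have. Such matches describe letters and say nothing of binding.

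Further genes on the oviduct side include some that are linked to cilia and others that are not. Cidea, a lipid droplet protein known from brown fat, was the most negative of the named differences, at -3.90 ± 0.35 (adjusted p = 0.000306). It had 620, 602 and 531 in DES oviduct and 21.4 or less on the other 9 arrays, at least 11.9-fold above oil oviduct. Cidea stood alone on the adipocyte list, where 1 of 13 genes was called (1.02% of all genes). Ucp1, the uncoupling protein that defines brown fat, had mean signals of 12.9 in DES uterus and 12.1 in DES oviduct.

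Agr3, a disulfide isomerase relative known in ciliated airway cells, had 409, 403 and 473 in DES oviduct, against 24.0, 21.7 and 8.84 in oil oviduct, at least 8.0-fold lower there. On the 6 uterus arrays it was 12.8 or less, and the difference was -3.28 ± 0.35 (adjusted p = 0.00083). Ccna1, the cyclin of meiosis, had 632, 452 and 440 in DES oviduct, against 13.1, 24.2 and 3.54 in oil oviduct, with a difference of -3.40 ± 0.48 (adjusted p = 0.00526). It was the 1 called gene among 44 of the cell cycle list (1.02% of all genes). Of these 44, 13 fell in the uterus (2.49% of all genes) and 12 in the oviduct (2.26%). Lrrc51 (-3.38, adjusted p = 0.00256) and Dnajb13, a radial spoke chaperone (-3.19, adjusted p = 0.0201), had the same shape.

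Acox2, a peroxisomal oxidase of bile acid and branched fatty acid breakdown, had 27.4, 28.4 and 11.8 in DES uterus, against 186, 157 and 10.6 in oil uterus, all called Absent. Its signals were 409, 342 and 274 in DES oviduct, against 53.8, 43.4 and 13.3 in oil oviduct. The difference of -3.64 ± 0.73 (adjusted p = 0.0428) rested on many arrays, since the call was lost when any array but oil uterus array 3 was left out (up to 0.111 without oil uterus array 2). Dnajb13 lost its call without DES oviduct array 2, DES uterus array 1 or 2, oil oviduct array 1 or oil uterus array 1 (up to 0.0633 without oil oviduct array 1).

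Emb, embigin, a partner of monocarboxylate transporters, rose in both organs and more in the oviduct. It had 998, 889 and 1027 in DES uterus, against 328, 366 and 292 in oil uterus, and 5443, 5840 and 5687 in DES oviduct, against 256, 140 and 233 in oil oviduct. The groups did not overlap in either organ, which the naming rule required in the oviduct. The rises were 1.48 in uterus and 4.59 in oviduct, with a difference of -3.11 ± 0.25 (adjusted p = 0.000118). A second probe set of Emb gave -2.42. No other gene of its list of 9 had a call for the difference (1.02% of all genes had one). That list also holds basigin, monocarboxylate transporters, glucose transporters and lactate dehydrogenases.

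Ovgp1, oviductin, the glycoprotein that oviduct secretory cells put around the egg, had 193, 334 and 118 in DES uterus, 164, 180 and 118 in oil uterus, 5139, 6049 and 4219 in DES oviduct and 922, 919 and 858 in oil oviduct. It was thus an oviduct gene with oil and was higher still with DES, by 2.46 (adjusted p = 8.87e-05), with a difference of -2.13 ± 0.37 (adjusted p = 0.0201). Hdc, histidine decarboxylase, which makes histamine, had 12.04, 17.4 and 14.3 in DES uterus, 12.8, 33.7 and 88.5 in oil uterus, 2888, 2653 and 1632 in DES oviduct and 569, 261 and 594 in oil oviduct. Its difference was -2.90 ± 0.54 (adjusted p = 0.0303). It was the 1 gene of 13 on the mast cell list with a call for the difference (1.02% of all genes). The mast cell proteases Tpsb2 and Cma1 fell in both organs, by 2.15 and 1.67 in uterus and by 2.39 and 1.92 in oviduct.

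Gclc, the rate-limiting enzyme of glutathione synthesis, rose in the oviduct by 2.47 (adjusted p = 5.15e-05) and had a difference of -1.80 ± 0.35 (adjusted p = 0.0381). A second Gclc probe set, nearly as bright, gave -0.835, which did not pass (adjusted p = 0.18). Irs1, the insulin receptor substrate, had 6681, 5145 and 5687 in DES oviduct, against 2401, 2626 and 3129 in oil oviduct, and a difference of -1.01 ± 0.20 (adjusted p = 0.0427). Rdh10, which makes retinal, differed by -0.94 ± 0.17 (adjusted p = 0.0235). Ovgp1 lost its call without any of 7 arrays, namely DES uterus 1, oil uterus 1 and 2, DES oviduct 1 and 2 and oil oviduct 1 and 2 (up to 0.0703 without DES oviduct array 2), and Hdc unless oil uterus array 1 or 3, DES oviduct array 3 or oil oviduct array 3 was the one left out (up to 0.103 without DES oviduct array 2). Gclc lost it unless DES oviduct array 2 or oil oviduct array 3 was the one left out (up to 0.112 without DES uterus array 2), Irs1 unless DES uterus array 3, oil oviduct array 3 or oil uterus array 2 was (up to 0.117 without DES uterus array 2), and Rdh10 without DES oviduct array 2, DES uterus array 1 or 2 or oil uterus array 1 or 2 (up to 0.0802 without oil uterus array 1).

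In 4 genes the fitted DES effects had opposite directions in the 2 organs, each past the threshold in both. Prom1, prominin, a membrane protein of epithelial protrusions, had 856, 770 and 609 in DES uterus, against 2048, 2229 and 1828 in oil uterus. In the oviduct it had 3011, 2759 and 3043 with DES, against 898, 1112 and 897 with oil. It fell by 1.42 in the uterus and rose by 1.57 in the oviduct, with no overlap between groups in either organ, and its difference of -2.99 ± 0.20 had the lowest adjusted p of the contrast among named genes, 2.53e-05.

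Elf5, an epithelial transcription factor of ductal cells, had 19.7, 9.16 and 34.2 in DES uterus, against 105, 79.0 and 73.1 in oil uterus, all called Absent. In the oviduct it had 112, 151 and 122 with DES, against 41.4, 25.9 and 62.8 with oil. The difference was -2.28 ± 0.42 (adjusted p = 0.0268), close to background throughout. Its call was lost unless DES uterus array 3, oil oviduct array 3 or oil uterus array 3 was the one left out (up to 0.0879 without DES uterus array 2). A second, dimmer probe set of Elf5 gave -0.57 in uterus, 0.83 in oviduct and a difference of -1.40 that did not pass (adjusted p = 0.514).

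Igfbp2 and Igfbp5, which bind insulin-like growth factors, moved the other way. Igfbp2 had 4849, 5294 and 5226 in DES uterus, against 2830, 2845 and 3366 in oil uterus, and 1954, 2277 and 1814 in DES oviduct, against 4097, 3107 and 4954 in oil oviduct. Its difference was 1.74 ± 0.22 (adjusted p = 0.00252). Igfbp5 had 8338, 9642 and 9298 in DES uterus, against 5257, 5610 and 7342 in oil uterus, and 5527, 5014 and 5719 in DES oviduct, against 6925, 8725 and 9818 in oil oviduct. The difference was 1.23 ± 0.22 (adjusted p = 0.0212), and its call was lost without DES uterus array 2, oil uterus array 1 or 2, DES oviduct array 1 or 2 or oil oviduct array 2 (up to 0.0746 without oil uterus array 1). A second probe set of Igfbp5 gave 1.52, which did not pass (adjusted p = 0.189).

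**Figure D4:**
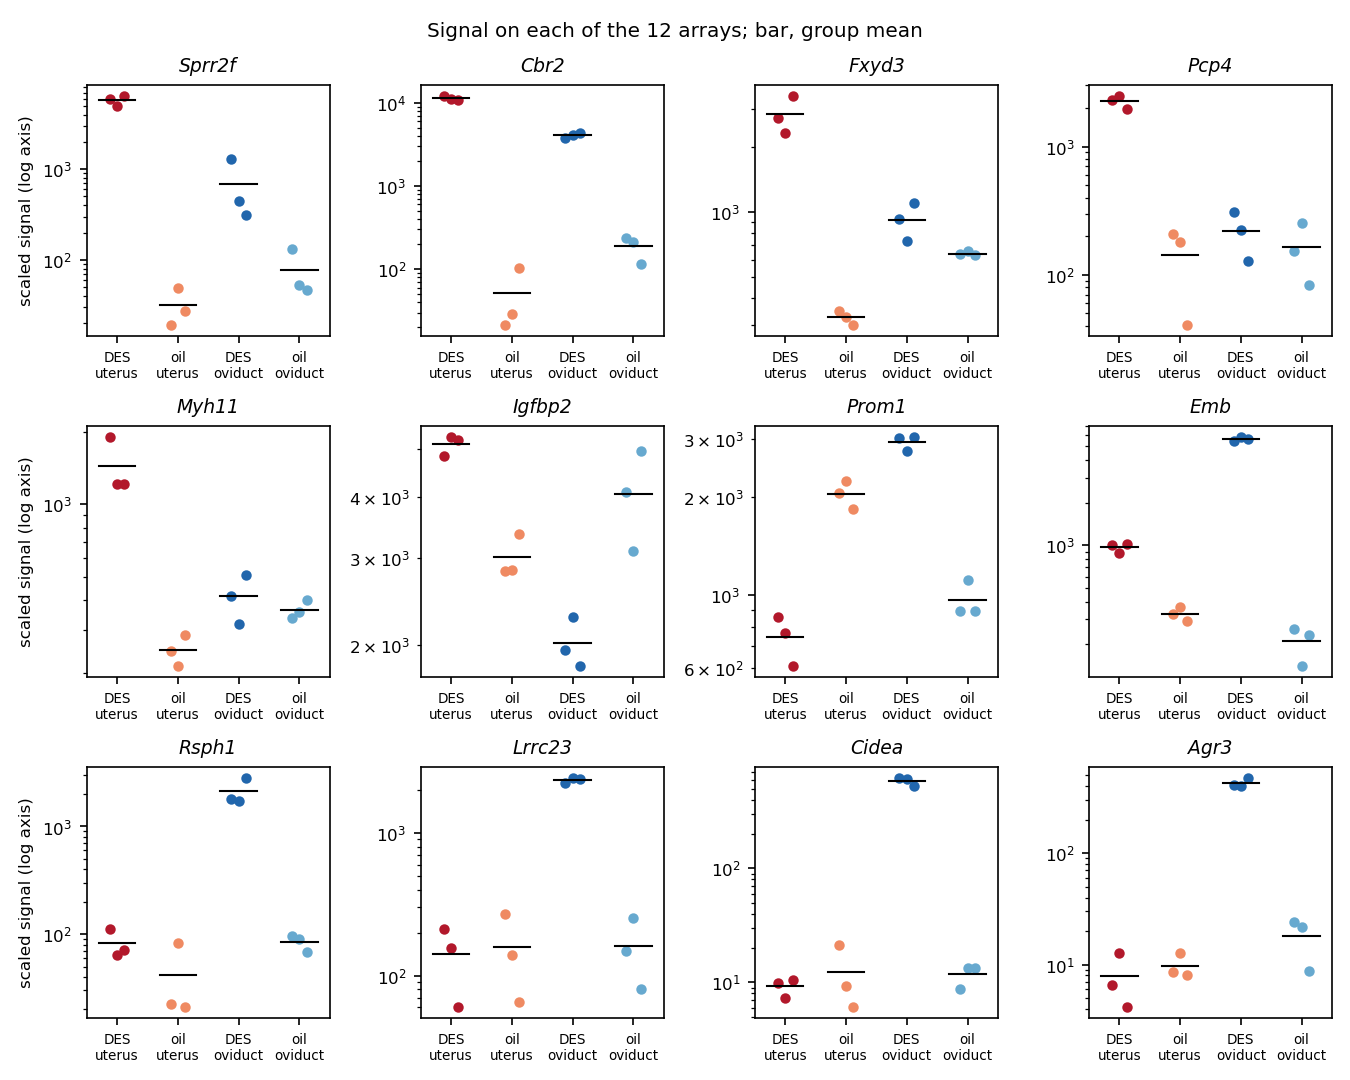
Scaled signal on each of the 12 arrays (points, log axis, bar at the group mean) for 12 genes, with DES uterus, oil uterus, DES oviduct and oil oviduct from left to right in each panel. Sprr2f, Cbr2, Fxyd3, Pcp4 and Myh11 are highest in DES uterus, Emb, Rsph1, Lrrc23, Cidea and Agr3 in DES oviduct, and Igfbp2 and Prom1 cross over between the organs.

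Among epithelial genes on the uterus side were 2 of 34 measured on the cornified and stratified list, 2 of 20 on the mucous list and 1 of 31 on the simple epithelium list, where 0.42% of all genes were called. Sprr2f, a small proline-rich protein and a known estrogen-responsive gene of the uterine epithelium, had the most positive difference of the named genes. Its signals were 5944, 4922 and 6415 in DES uterus, against 19.2, 48.8 and 27.6 in oil uterus. In the oviduct it had 1306, 448 and 310 with DES, against 133, 52.6 and 46.9 with oil. It rose in both organs, by 6.52 and by 2.55, and the difference was 3.97 ± 0.59 (adjusted p = 0.00765). The DES oviduct arrays varied by more than 4-fold among themselves, with array 1 the highest.

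Cbr2, a carbonyl reductase known from the lung, had 12120, 10990 and 10930 in DES uterus, against 21.4, 29.0 and 103 in oil uterus, and 3802, 4090 and 4297 in DES oviduct, against 236, 214 and 116 in oil oviduct. It rose in both organs without overlap, which the naming rule required in the uterus. The rises were 7.22 and 4.26, with a difference of 2.96 ± 0.42 (adjusted p = 0.00502). With oil it was higher in the oviduct, and with DES it was higher in the uterus. Fxyd3, a regulator of the sodium pump, had 2705, 2322 and 3436 in DES uterus, against 348, 326 and 300 in oil uterus. Its oviduct signals were 928, 736 and 1094 with DES, against 638, 655 and 629 with oil, and the difference was 2.50 ± 0.24 (adjusted p = 0.000384).

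Muc1, a mucin of the apical cell surface, had 803, 629 and 706 in DES uterus, against 63.0, 94.1 and 129 in oil uterus, and it did not separate the oviduct groups (357, 187 and 366 with DES, 269, 150 and 315 with oil). Its difference was 2.29 ± 0.44 (adjusted p = 0.0342). Tff2, a trefoil peptide of mucous cells, had 396, 236 and 295 in DES uterus, at least 4.63-fold above oil uterus, and was called Absent in the other 3 groups, with a difference of 2.55 ± 0.50 (adjusted p = 0.0368). Of 20 measured mucous and secretory genes, 2 were called on the uterus side (0.42% of all genes) and 1, Agr3, on the oviduct side (0.597%). In the uterus 11 of them rose (3.82% of all genes), and in the oviduct 7 did (3.57% of all genes). Krt7, a keratin of simple epithelia, and Krt15, of basal cells, differed by 1.34 ± 0.27 (adjusted p = 0.0417) and 3.26 ± 0.66 (adjusted p = 0.0459). Krt15 had 219, 184 and 751 in DES uterus, called Present on 2 of the 3 arrays, and a mean of 56.9 in oil uterus. Its oviduct means were 83.5 with DES and 240 with oil. The difference thus joined a uterine change of 2.01 to one of -1.24 in the oviduct, which was not called (adjusted p = 0.196).

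Single arrays ended several of these calls. Muc1 lost it with any array left out but DES oviduct array 3, oil oviduct array 2 and oil uterus array 3 (up to 0.0943 without oil oviduct array 1), and Tff2 with any but DES oviduct array 3 and oil uterus array 3 (up to 0.107 without DES oviduct array 2). Krt7 kept it without DES oviduct array 3 or DES uterus array 2 (otherwise up to 0.107, without DES oviduct array 2), and Krt15 without DES oviduct array 3 (otherwise up to 0.128, without DES oviduct array 2). Sprr2f, Cbr2 and Fxyd3 kept theirs whichever array was left out, with adjusted p-values of up to 0.0338, 0.0236 and 0.0026. Without the 3 oil arrays rich in muscle transcripts, Cbr2 and Fxyd3 kept it (7.72e-05 and 0.0274) and Sprr2f did not (0.126), with a difference of 3.65 against 3.97.

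Several genes with very large DES effects did not pass for the difference. Clca1, a secreted mucus protein, had 19890, 16920 and 19340 in DES uterus, against 4.27, 323 and 4.87 in oil uterus, and 1774, 657 and 1896 in DES oviduct, against 45.0, 11.7 and 39.4 in oil oviduct. Its fitted difference was 3.48 ± 0.96 (adjusted p = 0.174, and 0.0823 with the scan day as a block), and oil uterus array 2 stood apart from arrays 1 and 3. Ltf, lactoferrin, the classic estrogen-induced uterine secretion, had a mean at least 9.49-fold higher with DES in uterus and at least 2.35-fold higher in oviduct, and its difference was 2.01 ± 0.43 (adjusted p = 0.0542, and 0.0204 with the block). Lcn2, lipocalin (1.81, adjusted p = 0.0672), and Arg1, arginase (2.17, adjusted p = 0.118), passed with the block, at 0.00662 and 0.00996. Hp, haptoglobin, pointed to the oviduct side, with rises of 3.89 in uterus and 6.10 in oviduct and a difference of -2.20 (adjusted p = 0.136, and 0.0485 with the block). Over the 40 measured genes of the estrogen-responsive list, 4 were called on the uterus side (Sprr2f, Muc1, Igf1 and Inhbb, against 0.42% of all genes). None was called on the oviduct side (0.597% of all genes), and the median difference was 0.03.

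The promoters of Sprr2f (chr3:92364937-92365236, plus strand) and Pcp4 (chr16:96467356-96467655, plus strand) are given as those of the 2 most positive differences, in the same layout. Capitals mark estrogen half-sites as above and the TATA box, searched as TATAAA on both strands.
Sprr2f: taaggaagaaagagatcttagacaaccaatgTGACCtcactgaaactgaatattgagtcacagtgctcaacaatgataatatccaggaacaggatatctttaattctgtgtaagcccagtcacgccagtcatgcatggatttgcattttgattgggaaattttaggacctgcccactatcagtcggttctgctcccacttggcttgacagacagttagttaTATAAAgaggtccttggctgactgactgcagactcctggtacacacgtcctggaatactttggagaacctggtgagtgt
Pcp4: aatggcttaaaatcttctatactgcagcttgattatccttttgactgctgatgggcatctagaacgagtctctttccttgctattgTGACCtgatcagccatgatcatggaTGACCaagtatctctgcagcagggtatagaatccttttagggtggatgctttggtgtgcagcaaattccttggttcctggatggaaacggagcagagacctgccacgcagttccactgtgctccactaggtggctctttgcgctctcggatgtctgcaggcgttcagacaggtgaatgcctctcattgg
Sprr2f holds 1 estrogen half-site, 219 bases before the start, and a TATA box 29 bases before it. Pcp4 holds 2 estrogen half-sites, 164 and 139 bases before the start. The full palindrome, 2 half-sites joined across 3 bases (GGTCANNNTGACC, which contains the half-site), is in none of the 4 promoters printed here and in 0.074% of all genes with a promoter. The half-site is in 4 of the 10 genes with a promoter among the 12 most positive differences, and a TATA box in 4 of them, against 43.6% and 15.7% of all genes.

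Of 24 measured smooth muscle genes, 10 rose with DES in the uterus (3.82% of all genes) and none was called in the oviduct (3.57% of all genes rose there). The difference itself passed for 3 of the 24, all on the uterus side (0.42% of all genes). In the fit blocked by scan day these were 10 (1.36% of all genes, with 1.54% on the oviduct side), and in the oviduct that fit called 2 of the 24 as higher and 1 as lower. The median difference over the list was 0.63. The summed signal was 86533 to 100492 in DES uterus, 52947 to 54734 in oil uterus, 48733 to 51852 in DES oviduct and 44918 to 58150 in oil oviduct. The DES uterus arrays stood above the other 9, which overlapped.

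Myh11, the smooth muscle myosin heavy chain, had 1901, 1218 and 1212 in DES uterus, against 247, 214 and 288 in oil uterus, and 415, 320 and 510 in DES oviduct, against 337, 358 and 403 in oil oviduct. Its difference was 2.22 ± 0.30 (adjusted p = 0.00409), and a second, much dimmer probe set gave 0.89 (adjusted p = 0.921). Pcp4, a calmodulin-binding peptide found in smooth muscle and neurons, had 2297, 2480 and 1962 in DES uterus, against 207, 181 and 40.6 in oil uterus, and 308, 223 and 128 in DES oviduct, against 152, 255 and 83.5 in oil oviduct, with a difference of 3.48 ± 0.62 (adjusted p = 0.0212). Cnn1, calponin, differed by 1.74 ± 0.34 (adjusted p = 0.0365). Acta2, smooth muscle actin, rose in the uterus by 0.89 (adjusted p = 0.00252) with a difference of 0.83 (adjusted p = 0.111), and Actg2, its enteric relative, had 1.12 in uterus and 0.84 in oviduct, neither called. Myocd, the coactivator of this gene program, had -0.83 and -0.50.

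Pcp4 lost its call without DES oviduct array 2, DES uterus array 1 or 2 or oil oviduct array 1 or 2 (up to 0.0732 without DES uterus array 2). Cnn1 lost it with any array left out but DES oviduct array 3 and oil oviduct array 1 (up to 0.0996 without oil uterus array 1). The list's count of 3 was 1 without DES oviduct array 2, DES uterus array 1 or 2 or oil oviduct array 2, 1 without the 3 oil arrays rich in muscle transcripts, and 4 without DES oviduct array 3. The uterine rises of the list remained 7 to 12 in number with any single array left out.

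Of 53 measured matrix genes of the connective tissue, 3 were called on the uterus side (0.42% of all genes) and 1 on the oviduct side (0.597%), or 15 and 1 with the scan day as a block, with a median difference of 0.33. Col6a1, a chain of the beaded-filament collagen VI, had 13740, 14180 and 13880 in DES uterus, against 5767, 5084 and 6762 in oil uterus. It had 7534, 9707 and 8804 in DES oviduct, against 8932, 8275 and 11610 in oil oviduct. The oviduct groups overlapped, and the difference was 1.39 ± 0.22 (adjusted p = 0.00928). Col6a2, its partner chain, differed by 1.30 ± 0.23 (adjusted p = 0.0201).

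Lum, lumican, which spaces collagen fibrils, rose in both organs, by 1.81 in uterus and 0.95 in oviduct, with a difference of 0.86 ± 0.18 (adjusted p = 0.0485). Vcan, versican, a large proteoglycan of loose embryonic stroma, fell in both and more in the uterus. It had 1711, 1707 and 1880 in DES uterus, against 6631, 6332 and 7519 in oil uterus, and 1318, 1462 and 1497 in DES oviduct, against 3369, 3058 and 3202 in oil oviduct. With oil it was higher in uterus by 1.08, with DES by 0.30, and the difference was -0.77 ± 0.15 (adjusted p = 0.0417).

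Chad, Thbs4 and Smoc1, secreted matrix proteins, were named for the size of their difference and are not on that list. Chad, chondroadherin, had 579, 441 and 922 in DES uterus, at least 11.3-fold above oil uterus, with a difference of 2.84 ± 0.57 (adjusted p = 0.0435). Thbs4, a thrombospondin, had 531, 685 and 865 in DES uterus, at least 9.88-fold above oil uterus, and 325, 172 and 300 in DES oviduct, against 63.9, 132 and 240 in oil oviduct. Its difference was 2.72 ± 0.56 (adjusted p = 0.0459). Smoc1, a secreted calcium-binding modulator of BMP signals, had 1087, 921 and 1104 in DES uterus and 331 or less on the other 9 arrays, with a difference of 2.70 ± 0.49 (adjusted p = 0.0248).

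Col6a1 kept its call whichever array was left out. Col6a2 lost it without DES oviduct array 1 or 2, DES uterus array 2 or oil uterus array 1 or 2 (up to 0.069 without DES uterus array 2), and Smoc1 without DES oviduct array 2, any DES uterus array or oil oviduct array 1 or 2 (up to 0.0737 without DES uterus array 1). Chad kept it only without DES oviduct array 3, Lum only without oil oviduct array 3, and Vcan only without DES uterus array 3, and otherwise the adjusted p reached 0.119, 0.146 and 0.117. Thbs4 kept it only without oil oviduct array 1 or oil uterus array 3 and reached 0.131 without DES oviduct array 2. None of the 53 passed without the 3 oil arrays rich in muscle transcripts, where the median was 0.49.

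On the insulin-like growth factor list of 15 genes, 3 were called on the uterus side (Igf1, Igfbp2 and Igfbp5, against 0.42% of all genes) and 1, Irs1, on the oviduct side (0.597%). Igf1, the stromal growth factor that mediates estrogen action on uterine epithelium, had 7309, 7075 and 6301 in DES uterus, against 2161, 2155 and 2602 in oil uterus, and 6107, 8647 and 5767 in DES oviduct, against 6194, 6000 and 6781 in oil oviduct. With DES the uterus thus reached the level that the oviduct had under both treatments, and the difference was 1.48 ± 0.21 (adjusted p = 0.00545), with 1.31 (called) and 1.02 (adjusted p = 0.298) for the other 2 probe sets.

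Among 44 genes of the BMP, activin and TGF-beta list, 2 were called on the uterus side (0.42% of all genes) and none on the oviduct side. Inhbb, the activin B subunit, had 1400, 1497 and 1249 in DES uterus, against 86.5, 63.9 and 82.0 in oil uterus, and 459, 449 and 316 in DES oviduct, against 110, 175 and 88.9 in oil oviduct. By this probe set it rose in both organs, with a difference of 2.18 ± 0.34 (adjusted p = 0.00928). A second, dimmer probe set gave 1.93 in uterus, 0.03 in oviduct and a difference of 1.90 that did not pass (adjusted p = 0.403). Gdf10, a BMP relative, fell in both and more in the oviduct, with 678, 597 and 495 in DES uterus, against 1077, 1043 and 1684 in oil uterus, and 106, 139 and 87.2 in DES oviduct, against 1241, 1384 and 1502 in oil oviduct. Its levels with oil overlapped between the organs, and its difference was 2.27 ± 0.29 (adjusted p = 0.00268).

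Ptch1, the hedgehog receptor and itself a target of the pathway, had 304, 395 and 286 in DES uterus, against 566, 511 and 398 in oil uterus, and 1199, 1294 and 1263 in DES oviduct, against 577, 653 and 475 in oil oviduct. It rose in the oviduct by 1.11 (adjusted p = 0.002), and the difference was -1.64 ± 0.25 (adjusted p = 0.00894). Ptch1 was the 1 call among 14 hedgehog genes (1.02% of all genes). Its second, much dimmer probe set gave a difference of -0.04. Gli1, another target of the pathway, had 0.80 in uterus and 1.14 in oviduct, neither called. Egr1, an immediate early factor, rose in the uterus by 1.63 (adjusted p = 0.000502) with a difference of 1.65 ± 0.31 (adjusted p = 0.0332). Its call was lost with any array left out but DES uterus array 2 and oil oviduct array 1 (up to 0.0939 without oil uterus array 2).

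Tbx2, a T-box repressor, fell in the uterus alone and was the 1 call among 38 Müllerian transcription factors (1.02% of all genes). It had 82.1, 80.6 and 71.8 in DES uterus, against 287, 257 and 309 in oil uterus, and 399, 434 and 404 in DES oviduct, against 354, 365 and 431 in oil oviduct. The difference was -1.62 ± 0.28 (adjusted p = 0.0182). Its call was lost without oil uterus array 1, DES oviduct array 1 or 2 or oil oviduct array 1 or 2 (up to 0.067 without DES oviduct array 2). Msx1, a homeobox gene of the uterine epithelium and stroma, had 13.1, 204 and 101.4 in DES uterus, against 580, 619 and 514 in oil uterus, and 222, 264 and 102 in DES oviduct, against 272, 308 and 215 in oil oviduct. It fell in the uterus by 2.42 (adjusted p = 0.00766), and its difference of -1.97 (95% interval -3.42 to -0.53) did not pass (adjusted p = 0.356).

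Among genes known as targets or mediators of DES in the duct, none of the 41 Wnt pathway genes, 21 Wnt inhibitors, 13 posterior Hox genes, 18 anterior Hox genes or 13 steroid receptor genes passed, and their median differences lay between -0.25 and 0.19. With 1.02% of all genes called, lists of these sizes would hold few or no calls, so having none does not show equal responses. With the scan day as a block, where 1.36% of all genes were called on the uterus side and 1.54% on the oviduct side, 3 of these genes passed. They were Rspo1, an R-spondin that enhances Wnt signals (1.005, adjusted p = 0.0127), Dkk3, a dickkopf relative (-0.88, 0.0485), and Hoxd10. Rspo1 and Dkk3 were chosen after their values were seen. Unadjusted 95% intervals bound the sizes. Wnt7a, the Wnt ligand of the duct epithelium that patterns the uterus, had 71.2, 95.3 and 78.8 in DES uterus, against 635, 698 and 630 in oil uterus, and 17.1, 18.3 and 79.3 in DES oviduct, against 343, 377 and 397 in oil oviduct. Its mean was at least 6.05-fold lower with DES in the uterus and at least 6.18-fold lower in the oviduct, and the difference of 0.04 had an interval of -0.89 to 0.97.

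Wnt4 fell by 0.97 in uterus and 0.88 in oviduct, with a difference of -0.10 (interval -0.58 to 0.39), and Wnt5a, at 0.01, had an interval of -0.55 to 0.56. Hoxa10 (0.29, interval -0.81 to 1.39) and Hoxa11 (0.59, -0.09 to 1.27) had wider ones, and Hoxd10 fell in the oviduct by 2.36 (adjusted p = 0.000349) with a difference of 1.52 (adjusted p = 0.184, and 0.0307 with the scan day as a block). Esr1, the estrogen receptor, had 49.3, 247 and 273 in DES uterus and a difference of 0.11 with an interval of -1.35 to 1.57, too wide to bound. Pgr, the progesterone receptor, rose in the oviduct by 1.73 (adjusted p = 0.00413), had 0.98 in the uterus (adjusted p = 0.0972) and differed by -0.75 (interval -1.69 to 0.19). Greb1, an estrogen receptor cofactor, rose in both organs with a difference of -0.51 (interval -1.33 to 0.31), and Bcat1, an amino acid transaminase, by 3.84 and 4.49 with a difference of -0.65 (interval -1.25 to -0.05).

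Genes of cells outside the duct also showed differences, and values of their lists are given beside them. Ddx4 and Dppa3, germ cell genes, were the 2 calls among 25 of that list, both on the uterus side (0.42% of all genes). Dppa3 had 125, 137 and 106 in DES uterus, against 188, 141 and 84.9 in oil uterus, and 139, 137 and 128 in DES oviduct, against 835, 2064 and 614 in oil oviduct. It fell in the oviduct by 2.66 (adjusted p = 0.000696), while the uterus groups overlapped, and the difference was 2.57 ± 0.53 (adjusted p = 0.0459). The list's summed signal was 1184 to 2201 in DES uterus, 2151 to 3087 in oil uterus, 1150 to 2284 in DES oviduct and 3373 to 8211 in oil oviduct, so that the 3 oil oviduct arrays held the most.

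Ddx4 had 273, 227 and 100.7 in DES uterus, against 4.27, 37.2 and 21.1 in oil uterus, and 32.7, 17.6 and 3.69 in DES oviduct, against 87.2, 77.7 and 53.0 in oil oviduct. It was at least 3.47-fold higher with DES in the uterus, where no other germ cell gene of the list rose, and at least 1.98-fold lower with DES in the oviduct, where it was not called. The difference was 3.19 ± 0.53 (adjusted p = 0.0163). Dppa3 kept its call only without oil oviduct array 3 (up to 0.121 otherwise, without DES uterus array 2), and Ddx4 lost it without DES oviduct array 2, DES uterus array 2, oil oviduct array 1 or oil uterus array 1 (up to 0.0536). Whether germ cells of a neighbouring ovary were in the oil oviduct samples was not tested.

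Ngfr, the low-affinity neurotrophin receptor, was the 1 call among 31 nerve genes (1.02% of all genes). It had 1384, 1266 and 1727 in DES uterus, against 330, 207 and 230 in oil uterus, and 377, 435 and 416 in DES oviduct, against 299, 434 and 413 in oil oviduct, with a difference of 2.28 ± 0.29 (adjusted p = 0.00236). Other, dimmer probe sets of Ngfr gave 1.80 and 0.81, neither called (adjusted p = 0.4215 and 0.82). The list's summed signal was 6867 to 7903 in DES uterus, 7087 to 8960 in oil uterus, 6394 to 7462 in DES oviduct and 9708 to 11457 in oil oviduct. It overlapped between the uterus groups, where Ngfr rose, and was lower with DES in the oviduct, where Ngfr did not separate the groups. Lyz2, lysozyme of macrophages, differed by 1.105 ± 0.23 (adjusted p = 0.0484) with a call in neither organ, as 1 of 33 leukocyte genes (1.02% of all genes). No gene of the skeletal muscle, mesothelium, endothelium, erythroid or nephric duct lists was called, of 36, 14, 21, 16 and 13 measured. With 1.02% of all genes called, lists of these sizes would hold few or no calls.

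The 2 remaining genes of the naming rule were Apobec2, an editing-enzyme relative of muscle, and Plet1. Apobec2 had 588, 681 and 514 in DES uterus, against 22.4, 18.6 and 114 in oil uterus, and 128, 161 and 132 in DES oviduct, against 134, 60.1 and 137 in oil oviduct, with a difference of 2.75 ± 0.55 (adjusted p = 0.0428). Its highest oil signals were on the 3 oil arrays rich in skeletal muscle transcripts. Without those arrays the difference was 2.67 and the call was lost (adjusted p = 0.087). Plet1 rose in both organs, by 3.34 and 2.20, and Ecrg4, a secreted peptide of the oviduct list, rose in the uterus by 1.37 with a difference of 1.77 ± 0.19 (adjusted p = 0.00083). With oil, Ecrg4 was lower in uterus than in oviduct by 2.62, with DES by 0.85. Apobec2 kept its call only without oil oviduct array 2 or oil uterus array 3, Plet1 (1.13, adjusted p = 0.0485) only without DES uterus array 3 or oil oviduct array 2, and Lyz2 only without DES oviduct array 3, with adjusted p-values of up to 0.122, 0.14 and 0.137. A second, dimmer probe set of Plet1 gave 0.64 in uterus, 0.56 in oviduct and a difference of 0.08, not called.

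**Figure D5:**
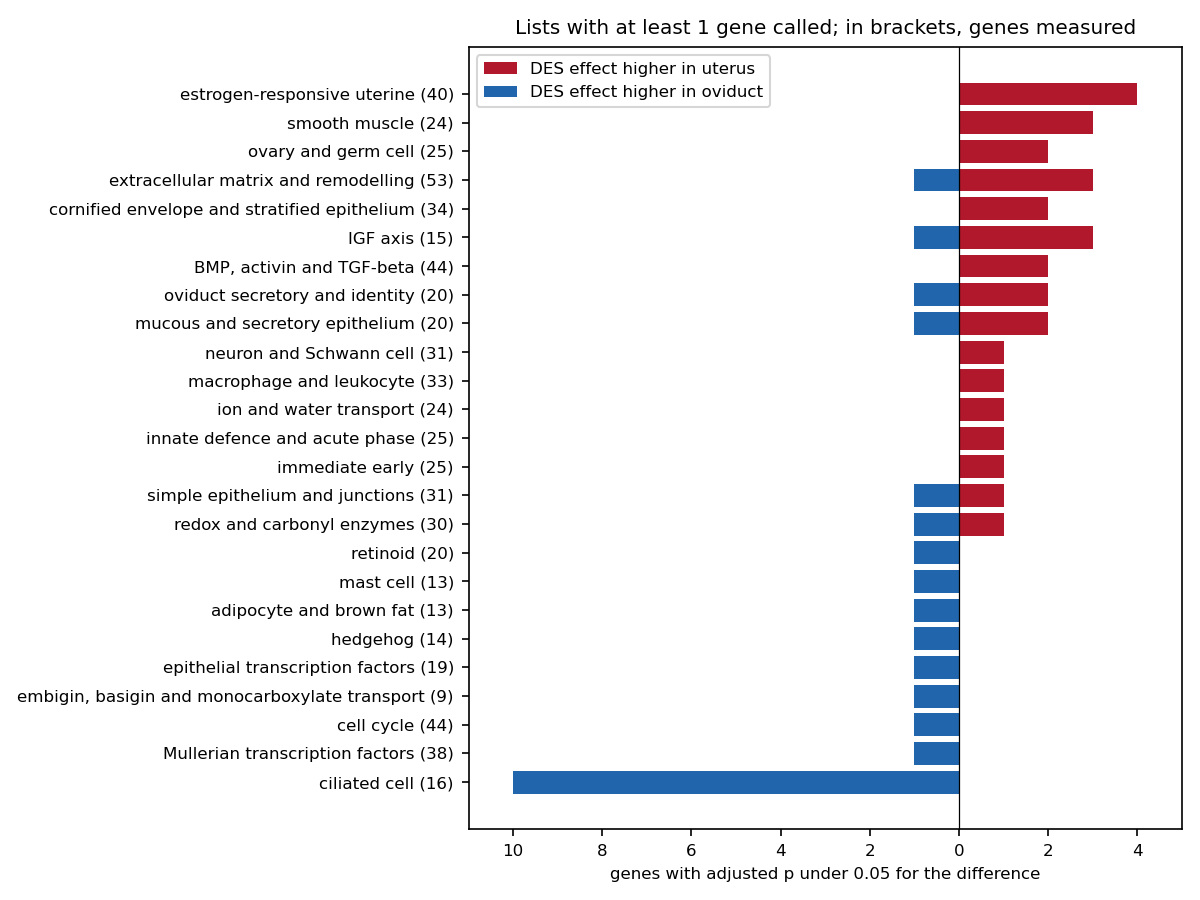
Number of genes per list with a difference past an adjusted p of 0.05, with those of more positive DES effect in the uterus to the right (red) and in the oviduct to the left (blue), and the number measured in brackets. The ciliated cell list stands out with 10 of 16 on the oviduct side, and no other list has more than 4 on either side.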

How the data were processed

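RNA of newborn mouse uterus and oviduct was hybridized to Affymetrix MOE430A arrays, 1 per sample. Per the file headers, the authors deposited a linear signal intensity per probe set, with its detection call and detection p-value. How the signals were scaled before deposit is not known here. The deposited value table holds the same intensities, and it was used for all arrays because the single file deposited for oil oviduct array 1 holds the values of DES oviduct array 1. Before scaling, the trimmed mean signal was 43.0 to 79.3 for arrays of the first scan day, with 52.7% to 58.6% of probe sets called Present, and 108 to 143 for those of the second, with 63.7% to 66.3%. The number of arrays limits the precision.

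Each array was scaled to a mean of 500 after trimming 2% at each end, and limma 3.58.1 (R 4.3.3) was run on log2(signal + 32), using a mean for each group and a variance trend (8 residual and 5.45 prior degrees of freedom). The contrast was (DES uterus minus oil uterus) minus (DES oviduct minus oil oviduct), with Benjamini-Hochberg adjustment over all 22626 probe sets. The script was tested on simulated data. A gene is represented by its brightest probe set, of 20380 with 1 symbol in the platform annotation, while 691 carry several and 1555 none. Where every call of a group was Absent, its level is a bound, taken per array as the larger of the probe set's signal and the dimmest Present signal. Named were the 12 most positive and 12 most negative called genes that met 2 conditions, a fixed set, and up to 4 called and 2 other members of each list. The first condition was a Present call on every array with calls in the group with the highest mean. The second was no overlap between DES and oil arrays in the organ with the larger absolute DES effect. Neither condition concerned the other groups or the other organ. The members and lists were chosen with earlier results of these data known. Promoters were to be those of the largest named differences on each side, but on the oviduct side they were restricted to the ciliated cell list after the values were seen.

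Same-numbered arrays of different groups deviated together (median r = 0.283 over probe sets, lowest 0.11, n = 18 pairs), but so did differently numbered arrays of the same scan day (0.246, n = 12), and arrays of different days did not (-0.369, n = 24). Both the array number and the scan day were therefore also fitted as blocks. Alternatives were other pseudocounts, quantile normalization, filters on calls, no variance trend, array weights, all 17 arrays, and arrays left out. The 2 sets of doubtful arrays left out were chosen after the data were seen.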

Additional observations from a re-analysis of the deposited data

Results flagged for a closer look

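The difference of the DES effect between uterus and oviduct was tested directly, and 152 probe sets passed it. Of the genes named, 4 passed the test in each organ with opposite directions. Prom1 differed by -2.99 on the log2 scale, with a fall in the uterus and a rise in the oviduct, and its adjusted p was at most 0.000286 with any single array left out. Elf5 differed by -2.28 in the same way, at signals that were called Absent in 3 of the 4 groups. Igfbp2 differed by 1.74 and Igfbp5 by 1.23, with a rise in the uterus and a fall in the oviduct. Igfbp2 kept its call with any single array left out (adjusted p of up to 0.0121), and Igfbp5 did not.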

How the results depend on the processing

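Of the 51 named genes with a called difference, none changed its sign under the alternatives run, and 21 kept the call whichever array was left out. Without the variance trend 30 of the 51 kept the call, and 106 probe sets were called. The count of 152 probe sets was 98 with a pseudocount of 1 and 351 with array weights, which gave 1881 for the uterus and 1708 for the oviduct against 1143 and 1053. With the replicate number as a block, which the pairing check allows, the counts were 425 for the difference, 2137 for the uterus and 2101 for the oviduct. A scan day block gave 476, 2286 and 2217. Under both blocks all 51 named genes were still called, and 9 and 12 of the 91 others gained a call. Single arrays left out gave 57 to 128 for the difference, 715 to 1211 for the uterus and 663 to 1159 for the oviduct. Calls also fell in number in the settings that left out 2 or 3 chosen arrays. The first scan day alone, with 2 arrays per group, gave 210 for the difference. Whether the number or the choice of arrays changed the counts was not tested. Without oil oviduct array 1 and DES oviduct array 1 there were 35 for the difference and 411 for the oviduct, and without oil oviduct array 1 and DES oviduct array 3 there were 52 and 647. Of the 51 named genes, 14 and 22 kept the call in these 2 settings. Without the 3 oil arrays rich in muscle transcripts there were 26 and 368, and 16 of the 51 named genes kept the call. In filters on detection calls fewer probe sets were tested, with 200 and 227 called. The cause of the changes with pseudocount, variance trend, weights and blocks was not tested. Probe sets called Absent have no measured level, so their differences depend on the pseudocount: 34 of the 51 kept the call with a pseudocount of 1 and 49 with 100.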

Other observations

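Further genes were called for the difference but lie outside the naming rule, and they were chosen here after their values were seen. Many on the oviduct side are known for cilia or flagella. Zmynd10, which assembles dynein arms, differed by -3.61 (adjusted p = 0.000644 by limma), with a change of 3.62 in the oviduct and 0.01 in the uterus. Mns1 (-3.04), Spag6l (-3.04), Cfap61 (-2.60), Morn3 (-2.57), Dnah11 (-2.47), Ift74 (-1.60), Cfap36 (-1.44) and Ift22 (-1.32) had the same direction, each with a rise in the oviduct past the threshold and no call in the uterus. They were not on the ciliated cell list, and no test was made of them as a group.

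The metallothioneins Mt1 and Mt2, which bind zinc and copper, were on the oviduct side. Mt1 rose by 2.24 in the oviduct and had 0.30 in the uterus, and Mt2 rose by 2.10 and by 0.62, with differences of -1.94 and -1.48. Cpxm2, a carboxypeptidase relative, fell by 3.34 in the uterus, with -0.76 in the oviduct (adjusted p = 0.0668) and a difference of -2.58 (adjusted p = 0.00206). On the uterus side, Abi3bp, a matrix protein, differed by 2.25 (adjusted p = 0.00409), Kcne4, a potassium channel subunit, by 2.14, and Dio2, the deiodinase that activates thyroid hormone, by 1.99, with rises of 3.38 in the uterus and 1.38 in the oviduct. Moxd1, a monooxygenase relative, fell in both organs, by 0.87 in the uterus and by 2.54 in the oviduct, a difference of 1.67.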
